A study of Homo sapiens with 15 samples.

Results

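A group of 10 genes of lipid handling and macrophage differentiation was followed in THP-1 cells, a human line from an acute monocytic leukaemia that can be driven towards macrophages in culture. They are PPARG, ABCA1, LIPA, PLIN2, CD36, FABP4, FABP5, LGALS3, CD9 and TM6SF1. All 23 non-control probe sets annotated to these 10 genes alone were taken, of 54613 on the array, and 0 of them are shared with another gene. The genes were selected on the measured differences between infliximab-treated and untreated cells, which were known when the group was proposed. Those differences, and those between infliximab and CDP870 that rest on the same infliximab arrays, are therefore given as a description, with no p-value. Where the text counts genes past the threshold of the fit in those comparisons, the count describes the arrays that chose them and is not an independent test. Of the 23 probe sets, 9 lay above their array's median on at least 3 of the 15 arrays and were tested among 28897, which represent 8 of the 10 genes. FABP4 and CD36 had no tested probe set.

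The series holds 5 groups of 3 arrays: cells given infliximab for 6 h, infliximab for 24 h, CDP870 for 6 h or CDP870 for 24 h, and untreated cells at 0 h. Infliximab is a chimeric IgG1 antibody against tumour necrosis factor. CDP870, also known as certolizumab pegol, is a PEGylated antibody fragment against the same cytokine that has no Fc part. All arrays come from the one THP-1 line, and the untreated cells were sampled only at 0 h, so that agent and hours in culture cannot be told apart in a comparison with them. The design text speaks of biological replicates, no label describes separate cultures, so the p-values reflect only how these arrays vary, which may be technical variation.

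Macrophages take up modified lipoproteins through scavenger receptors such as CD36, free their cholesterol and fatty acids in lysosomes with the acid lipase encoded by LIPA, and either store the lipid in droplets coated by PLIN2 or send cholesterol out through the transporter ABCA1. PPARG, a nuclear receptor activated by fatty acid derivatives, switches on CD36, FABP4 and PLIN2 in macrophages, and liver X receptors, activated by oxysterols, switch on ABCA1. LGALS3 (galectin-3) and the tetraspanin CD9 are surface or secreted proteins whose levels climb as monocytes become macrophages.

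Values are log2 probe set summaries, on which a difference of 1 is a doubling of the signal, and the array medians ran from 2.93 to 3.07. The hybridisation spike-ins, bacterial transcripts added in known amounts (1.5, 5, 25 and 100 pM), had means of 5.37, 6.61, 8.73 and 10.56 in that order, a slope of 0.87 per log2 of the amount. Their level on the arrays averaged 8.02 ± 0.03 with infliximab for 6 h, 7.78 ± 0.16 with infliximab for 24 h, 7.77 ± 0.12 with CDP870 for 6 h, 7.87 ± 0.20 with CDP870 for 24 h and 7.65 ± 0.13 in untreated cells (SD, n = 3 each). The 3 arrays that stood apart by their mean correlation with the others were infliximab 24 h replicates 5 (0.987) and 6 (0.990) and untreated replicate 3 (0.990), against 0.991 to 0.993 on the rest. Of 13 THP-1 monocytic markers, 12 were on the array and FCGR1A never passed an array median. The mean level of those on the array lay between 6.71 and 7.16 on the infliximab arrays, between 6.64 and 6.79 on the CDP870 arrays and between 6.53 and 6.92 on the untreated arrays. Of 7 epithelial markers, 6 were tested and CDH1 never passed a median. The mean level of the list was 6.09 to 6.26 with infliximab for 6 h, 6.16 to 6.23 with infliximab for 24 h, 5.30 to 5.60 with CDP870 for 6 h, 5.41 to 5.46 with CDP870 for 24 h and 5.68 to 5.90 in untreated cells. The epithelial list thus differed between the groups in the same direction as several genes below, and its part in those results was not tested. The spike-in level was fitted as a covariate in an alternative given below, where most calls at 6 h of infliximab were lost. Its part as a cause was not tested. The adipocyte markers ADIPOQ and LEP, the T cell markers CD3G and CD2, the B cell marker MS4A1 and the fibroblast markers COL1A2, COL3A1 and LUM passed no array median. Other markers of these lists did pass and were tested: 3 of 5 adipocyte, 4 of 6 T cell, 3 of 5 B cell and 2 of 5 fibroblast. In bulk RNA, fewer cells of a type and less RNA per cell cannot be told apart.

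The levels separated the genes into those above the array median and those at or below it. FABP5 had the highest values (8.79 to 9.33 over 15 arrays), followed by LIPA (7.33 to 8.06) and PLIN2 (7.14 to 7.54). LGALS3, CD9, PPARG, TM6SF1 and ABCA1 were also above the median, with TM6SF1 spanning the widest range, from 3.77 to 6.73. ABCA1 lay nearest to the median, at 3.39 to 4.71 on its highest probe set and 3.12 to 4.42 on its other tested one. The 14 probe sets that were not tested lay between 0.90 and 3.12. Values of different probe sets cannot be ranked as amounts of RNA, because each set of probes has its own affinity.

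**Figure D1:**
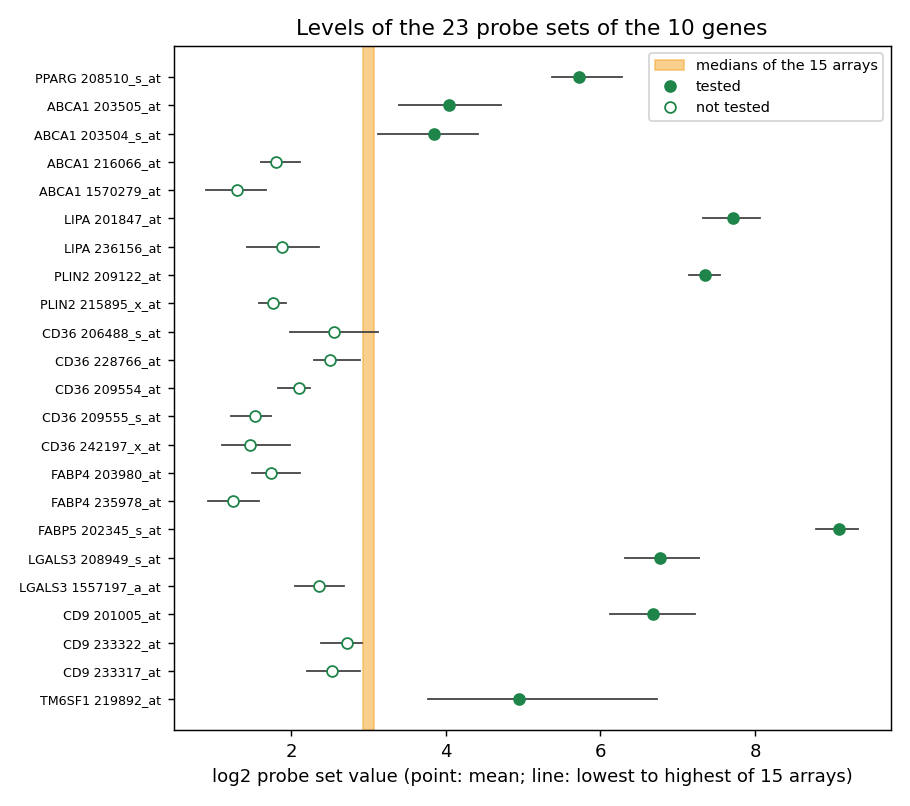
Log2 values of the 23 probe sets of the 10 genes (x axis), with the mean as a point and the lowest and highest of 15 arrays as a line. Filled points are tested probe sets and open points are not. The orange band marks the array medians (2.93 to 3.07), and all probe sets of CD36 and FABP4 have their means below it.

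With infliximab, 6 of the 8 genes with a tested probe set had higher signal than untreated cells on every array at 6 h and at 24 h: TM6SF1, PPARG, LGALS3, CD9, ABCA1 and LIPA. FABP5 was lower on every infliximab array, and the PLIN2 values of the groups overlapped. Without overlap, 12.7% of all tested genes lay higher and 19.8% lower at 6 h, and 9.93% and 11.4% at 24 h. The genes were chosen with these infliximab arrays, so the count is a description. TM6SF1 stood out in size, at 2.26 ± 0.24 at 6 h and 1.97 ± 0.24 at 24 h (log2, SE), while the other 6 genes that differed lay between 0.36 and 0.61 in absolute size. With CDP870 no gene of the 8 passed the test against untreated cells at either time, and 0% of all tested genes did.

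PPARG (chromosome 3, 12287368 to 12434344 in GRCh38.p14) encodes the nuclear receptor PPAR-gamma. Its probe set read 5.95, 6.17 and 5.95 with infliximab for 6 h and 6.28, 5.95 and 6.07 with infliximab for 24 h. With CDP870 it read 5.51, 5.50 and 5.53 at 6 h and 5.49, 5.46 and 5.37 at 24 h, against 5.45, 5.53 and 5.62 in untreated cells. All 6 infliximab arrays lay above all 9 others, and the CDP870 values overlapped the untreated ones. The difference from untreated cells was 0.49 ± 0.10 at 6 h and 0.57 ± 0.10 at 24 h of infliximab (SE). For CDP870 it was -0.02 at 6 h (95% interval -0.23 to 0.19) and -0.09 at 24 h (-0.31 to 0.12), with limma adjusted p = 0.9975 and 0.98.

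ABCA1 (chromosome 9, 104781006 to 104928155) encodes the transporter that moves cholesterol and phospholipid out of the cell onto apolipoprotein A-I. Its promoter is shown because the site through which liver X receptors act on this gene is well known. The 300 bases from 250 before to 50 after the RefSeq start, on the minus strand at chr9:104928106-104928405 of GRCh38.p14, hold the E-box and the spaced repeat in capitals.
ABCA1 promoter: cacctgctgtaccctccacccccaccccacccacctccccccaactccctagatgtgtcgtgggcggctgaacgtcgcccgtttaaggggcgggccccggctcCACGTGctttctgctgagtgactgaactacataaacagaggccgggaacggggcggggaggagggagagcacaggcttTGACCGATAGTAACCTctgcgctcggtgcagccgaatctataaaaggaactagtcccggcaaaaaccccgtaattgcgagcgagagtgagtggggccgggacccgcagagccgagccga
The repeat was searched as AGGTTA and CGGTCA with 4 bases between them, letters taken from this known element, and lies on the opposite strand with its first base at position -69. It was found in 1 of 35116 promoter windows (0.0028%), this one, and the E-box CACGTG, here at -147, in 2548 (7.26%). Both strands were searched for every motif.

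The probe set of ABCA1 with the highest mean read 4.57, 4.36 and 4.48 with infliximab for 6 h and 4.31, 4.71 and 4.12 with infliximab for 24 h. With CDP870 the values were 3.82, 3.88 and 3.78 at 6 h and 3.71, 3.86 and 3.39 at 24 h, against 3.97, 3.78 and 3.82 in untreated cells. Every infliximab array was above every array of the other groups. The difference from untreated cells was 0.61 ± 0.14 at 6 h and 0.52 ± 0.14 at 24 h of infliximab, and the second was 0.23 without the 3 arrays that stood apart, which leaves replicate 7 alone in that group. The other tested probe set differed by 0.55 ± 0.21 at 6 h and by 0.42 ± 0.21 at 24 h, where its infliximab values (3.88, 4.23 and 4.34) overlapped the untreated ones (3.92, 3.39 and 3.87). That second probe set did not pass the threshold in either comparison. The remaining 2 probe sets of the gene stayed at or under 2.12. With CDP870 the first probe set differed by -0.03 at 6 h (-0.34 to 0.28, limma adjusted p = 0.9975) and by -0.20 at 24 h (-0.51 to 0.10, adjusted p = 0.974).

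LIPA (chromosome 10, 89213572 to 89414679), the lysosomal acid lipase gene, read 7.93, 8.06 and 7.86 with infliximab for 6 h and 7.83, 7.89 and 8.05 with infliximab for 24 h. With CDP870 it read 7.51, 7.60 and 7.62 at 6 h and 7.56, 7.58 and 7.46 at 24 h, against 7.68, 7.33 and 7.68 in untreated cells. The infliximab values lay above the rest, and untreated replicate 3, one of the arrays that stood apart, was the lowest of all. The difference of 0.39 ± 0.11 at 6 h of infliximab was 0.27 without the 3 arrays that stood apart, and the 24 h difference of 0.36 ± 0.11 did not pass the threshold and was 0.24 without untreated replicate 3. For CDP870 the differences were 0.01 at 6 h (-0.21 to 0.24) and -0.03 at 24 h (-0.26 to 0.20), with limma adjusted p = 0.9975 and 0.992. A further LIPA probe set lay between 1.43 and 2.36, under the array medians, and was not tested. With infliximab for 6 h it read 1.43 to 1.87, below the untreated 1.89 to 2.23 (-0.47), as 19.8% of all tested genes did without overlap. At 24 h its values overlapped the untreated ones.

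PLIN2 (chromosome 9, 19108388 to 19127492) encodes a coat protein of lipid droplets and is used as a marker of lipid loading in macrophages. Its promoter, on the minus strand at chr9:19127443-19127742, is shown beside that of ABCA1 because the same E-box, in capitals and here at -69, occurs in it while the values of these genes ran differently over the groups.
PLIN2 promoter: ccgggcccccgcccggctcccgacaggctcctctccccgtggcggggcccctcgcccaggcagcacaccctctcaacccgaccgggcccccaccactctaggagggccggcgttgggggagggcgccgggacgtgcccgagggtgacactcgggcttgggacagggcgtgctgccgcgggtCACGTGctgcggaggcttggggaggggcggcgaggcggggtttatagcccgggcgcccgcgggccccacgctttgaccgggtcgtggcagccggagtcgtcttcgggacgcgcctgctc
PLIN2 read 7.37, 7.48 and 7.28 with infliximab for 6 h and 7.22, 7.35 and 7.40 with infliximab for 24 h. CDP870 gave 7.30, 7.50 and 7.40 at 6 h and 7.34, 7.26 and 7.40 at 24 h, against 7.54, 7.14 and 7.36 in untreated cells. All 5 groups overlapped, and the untreated arrays spread the most. The differences from untreated cells were 0.03 and -0.02 (SE 0.11) for infliximab at 6 and 24 h, 0.05 for CDP870 at 6 h (-0.18 to 0.28) and -0.01 for CDP870 at 24 h (-0.24 to 0.22). The intervals bound a change that these arrays could have missed, and limma gave adjusted p = 0.9975 and 0.997 for CDP870.

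The genes for lipid uptake and for the fatty acid carriers fell into 3 different situations. CD36 (chromosome 7, 80602207 to 80679274), the scavenger receptor and fatty acid transporter, had 5 probe sets between 1.10 and 3.12. Its highest probe set read 2.79, 2.81 and 3.12 with infliximab for 6 h and 2.53, 2.43 and 2.31 with infliximab for 24 h, and passed the array median on 1 array. It read 2.69, 2.55 and 2.32 with CDP870 for 6 h and 2.40, 2.69 and 1.99 with CDP870 for 24 h, against 2.47, 2.42 and 2.76 in untreated cells. FABP4 (chromosome 8, 81478419 to 81483233), the carrier abundant in fat cells and macrophages, lay between 0.92 and 2.12 on its 2 probe sets, and the higher of them averaged 1.60, 1.66, 1.84 and 1.64 with infliximab for 6 and 24 h and CDP870 for 6 and 24 h, against 1.94 in untreated cells. The arrays at 6 h of infliximab lay above the untreated ones on this probe set of CD36 and below them on that of FABP4 (1.52 to 1.64, against 1.71 to 2.12), as 12.7% and 19.8% of all tested genes did in those directions. At 24 h both overlapped, as did the other 4 probe sets of CD36 and the other of FABP4 at both times. Both genes lay at or under the array medians and were not tested.

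FABP5 (chromosome 8, 81280536 to 81284775), the epidermal-type carrier that also serves macrophages, was the one gene of the 8 tested that was lower with infliximab. It read 8.87, 8.80 and 8.96 at 6 h and 8.83, 8.90 and 8.79 at 24 h of infliximab. CDP870 gave 9.28, 9.23 and 9.27 at 6 h and 9.16, 9.25 and 9.11 at 24 h, against 9.29, 9.33 and 9.18 in untreated cells. All 6 infliximab arrays lay below the other 9. The infliximab differences were -0.39 ± 0.08 at 6 h and -0.43 ± 0.08 at 24 h, and those of CDP870 were -0.01 (-0.18 to 0.17) and -0.09 (-0.27 to 0.08), with limma adjusted p = 0.9975 and 0.974. The name of this probe set marks probes shared by several transcripts, and FABP5 has processed pseudogenes, so signal from near-identical copies cannot be told apart from it. The tested probe sets of PPARG and LGALS3 and the second one of ABCA1 carry the same mark. So do those given below for MYLIP, PSAP, G0S2, LPL, VLDLR, LGALS8 and TSPAN31.

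LGALS3 (chromosome 14, 55129252 to 55145430), which encodes galectin-3, a galactoside-binding lectin that macrophages secrete, read 7.07, 7.21 and 7.24 with infliximab for 6 h and 7.28, 6.98 and 7.14 with infliximab for 24 h. CDP870 gave 6.45, 6.32 and 6.48 at 6 h and 6.42, 6.47 and 6.55 at 24 h, against 6.54, 6.80 and 6.68 in untreated cells. The infliximab values were above, and the CDP870 values at 6 h below, all untreated values. Infliximab differed from untreated by 0.50 ± 0.10 at 6 h and 0.46 ± 0.10 at 24 h. CDP870 differed by -0.26 at 6 h (-0.47 to -0.04) and by -0.19 at 24 h (-0.41 to 0.02), which did not pass after adjustment (limma adjusted p = 0.9975 and 0.974). A further LGALS3 probe set stayed between 2.05 and 2.68 and was not tested.

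CD9 (chromosome 12, 6199946 to 6238266), a tetraspanin that organises adhesion and fusion at the cell surface, had the same order. It read 6.92, 7.19 and 7.01 with infliximab for 6 h and 7.22, 6.93 and 7.06 with infliximab for 24 h. CDP870 gave 6.28, 6.42 and 6.45 at 6 h and 6.24, 6.12 and 6.39 at 24 h, against 6.55, 6.84 and 6.52 in untreated cells. Each CDP870 array was below each untreated one and each infliximab array above. The infliximab differences were 0.40 ± 0.12 at 6 h and 0.43 ± 0.12 at 24 h. Those of CDP870 were -0.25 at 6 h (-0.50 to -0.0032) and -0.39 at 24 h (-0.64 to -0.14), with limma adjusted p = 0.9975 and 0.974. Its other 2 probe sets lay between 2.20 and 2.91, under the array medians, and were not tested. The higher of them went the other way, at 2.42 to 2.75 with infliximab for 6 h and 2.60 to 2.71 for 24 h. It read 2.79 to 2.89 in untreated cells. Of all tested genes 19.8% lay lower without overlap at 6 h and 11.4% at 24 h.

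TM6SF1 (chromosome 15, 83107645 to 83137408) encodes a protein of lysosomal membranes with several membrane spans, related to TM6SF2, a gene of hepatic lipid export. Its promoter, on the plus strand at chr15:83107395-83107694, is shown because this gene differed most. It held none of the 4 motifs searched, so no base is in capitals.
TM6SF1 promoter: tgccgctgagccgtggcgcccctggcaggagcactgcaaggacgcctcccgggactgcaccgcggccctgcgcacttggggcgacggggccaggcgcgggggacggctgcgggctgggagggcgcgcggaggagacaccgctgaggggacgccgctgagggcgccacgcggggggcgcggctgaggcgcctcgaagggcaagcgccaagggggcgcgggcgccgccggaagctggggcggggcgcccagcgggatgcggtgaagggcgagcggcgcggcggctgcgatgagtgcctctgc
TM6SF1 read 6.31, 6.57 and 6.15 with infliximab for 6 h and 5.65, 5.78 and 6.73 with infliximab for 24 h. With CDP870 it read 4.02, 3.82 and 4.21 at 6 h and 4.13, 4.50 and 4.06 at 24 h, against 4.15, 3.77 and 4.33 in untreated cells. The lowest infliximab array exceeded the highest of the other 9 by more than 1 log2 unit, and at 24 h the 2 arrays that stood apart (replicates 5 and 6) were below replicate 7. The differences of 2.26 ± 0.24 at 6 h and 1.97 ± 0.24 at 24 h correspond to 4.79-fold and 3.92-fold higher signal. At 24 h the difference was 2.49 without the 3 arrays that stood apart and 1.63 without replicate 7. For CDP870 it was -0.07 at 6 h (-0.58 to 0.44) and 0.15 at 24 h (-0.36 to 0.66), with limma adjusted p = 0.9975 and 0.987.

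**Figure D2:**
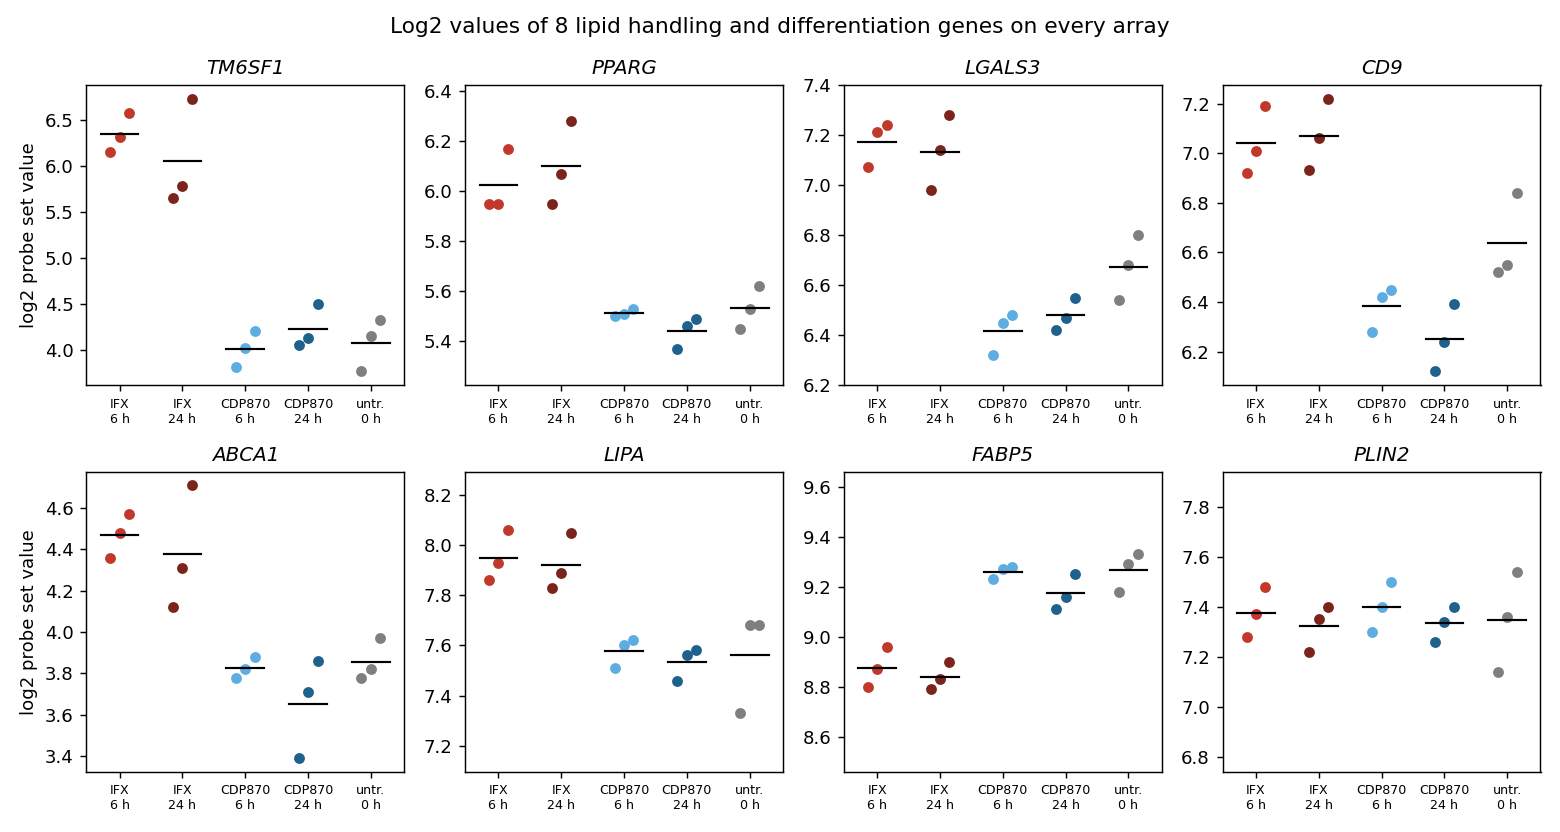
Log2 values (y axis, its own range in each panel) of the 8 genes with a tested probe set on every array. Points are arrays, 3 per group, and lines are group means. In 6 panels the infliximab (IFX) arrays are above all others, in that of FABP5 they are below (8.79 to 8.96), and in that of PLIN2 the groups overlap. The genes were chosen with these infliximab arrays.

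The promoter windows of the other genes were searched too. RefSeq windows were searched for 8 of the 10 genes, all but FABP4 and FABP5, and numbered 23. The nuclear receptor half-site AGGTCA, found in 4857 of 35116 windows (13.8%), was in 3 of the 23 windows. All 3 are of PPARG, and those starting at 12288810 and 12288820 overlap and hold the same match (at -14 and -24). Nothing is read from this count beside the share of all windows. TGATGNAA, the core of the amino acid response element, was in 1270 windows (3.62%) and in 0 of the 23. LGALS3 held none of the 4 motifs. A match is letters in a window, and a missing match says only that these letters are not there.

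At the level of the gene group, 6 genes were past the threshold as higher and 1 as lower with infliximab at 6 h, where 4.52% and 5.7% of all 13607 tested genes were called in those directions (limma, adjusted p under 0.05). At 24 h the counts were 5 and 1, where 4.75% and 3.45% of all genes were called, LIPA being the gene past the threshold only at 6 h. By array values alone, 6 genes at each time lay above all untreated arrays and 1 below, where 12.7% and 19.8% of all genes did so at 6 h and 9.93% and 11.4% at 24 h. The median difference of the 8 genes was 0.45 at 6 h and 0.45 at 24 h, beside -0.05 and -0.02 over all tested genes. These counts follow from how the genes were chosen and carry no weight of their own. With the spike-in level as a covariate TM6SF1 alone was past the threshold at 6 h, at 1.79, while the differences of the other 6 stayed at 0.56 for ABCA1, 0.49 for CD9, 0.49 for LGALS3, 0.47 for PPARG, 0.33 for LIPA and -0.43 for FABP5. Without the 3 arrays that stood apart 5 genes were called as higher and 1 as lower at 6 h, and 3 as higher and 0 as lower at 24 h, and a fit of the infliximab 24 h and untreated arrays alone called 1.

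Against CDP870 at the same time, 6 genes were past the threshold as higher with infliximab and 1 as lower at both 6 h and 24 h. These counts too rest on the infliximab arrays that chose the genes, and nothing is read from them beside the shares of all genes. Over all genes 5.55% and 4.95% were called in those directions at 6 h, and 6.06% and 2.14% at 24 h. The same 6 and 1 genes were counted by values without overlap, beside 17.8% and 23.7% of all genes at 6 h and 14% and 9.69% at 24 h. TM6SF1 differed by 2.33 at 6 h and 1.82 at 24 h, LGALS3 by 0.76 and 0.65, CD9 by 0.66 and 0.82, ABCA1 by 0.64 and 0.73, PPARG by 0.51 and 0.66, LIPA by 0.37 and 0.39, FABP5 by -0.38 and -0.33, and PLIN2 by -0.02 and -0.01. At both times the LGALS3, CD9, ABCA1 and PPARG differences are larger than those from untreated cells, because the CDP870 means lay below the untreated ones. With the spike-in level as a covariate TM6SF1 (2.02), LGALS3 (0.75) and CD9 (0.71) were past the threshold at 6 h, and ABCA1 (0.61), PPARG (0.50), LIPA (0.34) and FABP5 (-0.41) were not.

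CDP870 itself was tested against untreated cells for all 8 genes. limma called 0 of 8 at 6 h and 0 of 8 at 24 h, and 0% of all tested genes at either time. The count under an unadjusted limma p of 0.05 was 2 of 8 at 6 h (LGALS3 and CD9), beside 4.12% of all genes, and 1 of 8 at 24 h (CD9), beside 4.61%. At 6 h these 2 genes lay below all untreated arrays, as did 5.95% of all genes, and at 24 h CD9 alone did, as did 7.44%. No gene of the 8 lay above all untreated arrays, beside 3.66% of all genes at 6 h and 1.68% at 24 h. LGALS3 and CD9 were named here after their values were seen. The untreated arrays are the ones that also serve the infliximab comparisons.

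**Figure D3:**
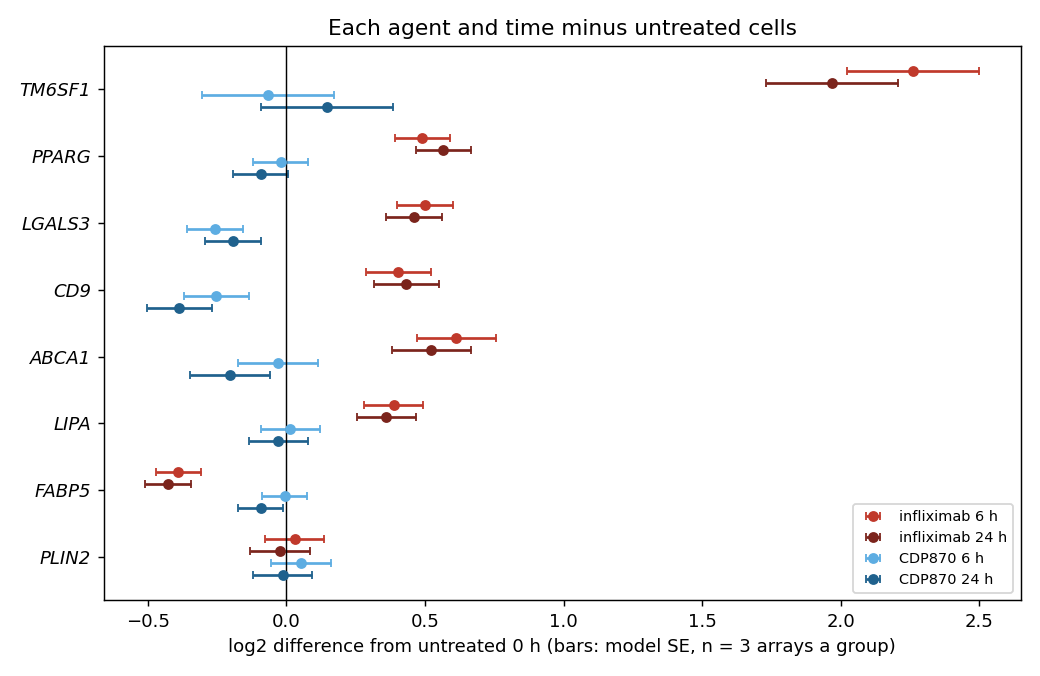
Log2 difference of each agent and time from untreated cells (x axis) for 8 genes, with the model SE as bars (n = 3 arrays a group). TM6SF1 lies near 2 with infliximab, and the CDP870 points of all 8 genes lie between -0.39 and 0.15. Those of LGALS3, CD9, ABCA1, PPARG and FABP5 lie to the left of 0 at both times.

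Between 24 h and 6 h of infliximab no gene passed (limma, 0 of 8, and 0% of all tested genes), and 0 of 8 had an unadjusted p under 0.05, beside 11.6% of all genes. The arrays of the times overlapped for all 8 genes, while 6.56% of all genes lay higher and 4.39% lower without overlap. TM6SF1 differed by -0.29 (-0.80 to 0.22, adjusted p = 0.667), and by -0.63 (adjusted p = 0.0483) without infliximab 24 h replicate 7, which makes that call rest on the arrays that stood apart. Without those arrays the difference was 0.39. For the other genes the differences lay between -0.09 and 0.08. LIPA differed by -0.03 (-0.25 to 0.20), so the call at only one of the times goes with no detectable difference between them.

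Between 24 h and 6 h of CDP870 the differences of the 8 genes lay between -0.17 and 0.21 and none passed (limma, 0 of 8, 0% of all genes, and 0 of 8 at an unadjusted p under 0.05, beside 4.33% of all genes). The PPARG arrays at 24 h (5.49, 5.46 and 5.37) lay below those at 6 h (5.51, 5.50 and 5.53), as did 8.25% of all genes, and no gene lay above them, beside 3.3%. The interaction, the infliximab difference between times minus that of CDP870, called 0 of 8 genes (0% of all genes; 0 of 8 at an unadjusted p under 0.05, beside 9.15% of all genes). It was largest in size for TM6SF1 at -0.50 (-1.22 to 0.22, limma adjusted p = 0.65) and lay between -0.10 and 0.16 for the others.

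Beyond these genes, 146 others of the same pathways were looked up in 7 lists, of which 113 were tested. These lists too were chosen with earlier results of these data known. Their infliximab counts and p-values are therefore not an independent test. With infliximab at 6 h 12 of the 113 rose and 0 fell (10.6% in either direction, beside 10.2% of all tested genes). The median was 0.03 beside -0.05. At 24 h 15 rose and 1 fell (14.2% in either direction, beside 8.2%), with a median of 0.12 beside -0.02. By direction, 4.52% of all tested genes were called higher and 5.7% lower at 6 h, and 4.75% and 3.45% at 24 h. With CDP870 0 of 113 passed at either time (limma). Without the 3 arrays that stood apart 18 genes were higher and 3 lower with infliximab at 6 h, and 11 higher and 1 lower at 24 h, and with the spike-in level as a covariate 3 were called at 6 h. Leaving out those arrays leaves 1 infliximab array at 24 h, whose spread is then assumed to be that of the other groups, which holds for every such 24 h value. Of the 12 genes called at 6 h, 12 kept their call without the arrays that stood apart and 3 (G0S2, CEBPB and CD53) with the spike-in covariate. Of the 16 called at 24 h, 10 and 16 did, and 3 (G0S2, CEBPB and VLDLR) in a fit of only the arrays compared. Most genes of every list did not pass, and the list medians lay between -0.02 and 0.24.

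Among 16 tested genes of PPAR signalling and fatty acid oxidation, 1 rose at each time. Of all tested genes 4.52% rose at 6 h and 4.75% at 24 h, and a count of 1 is not read as a result about the list. PPARD, a relative of PPARG that governs fatty acid use, averaged 6.48 with infliximab at 6 h and 6.51 at 24 h, against 5.89 in untreated cells (0.59 ± 0.12, limma adjusted p = 0.00712, and 0.62 ± 0.12, adjusted p = 0.00582). As the mean of all its tested probe sets the difference was 0.09 at 6 h and 0.30 at 24 h, so its probe sets differed in their response. The other 15 genes of the list did not pass, and its median was 0.11 at 24 h.

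Among 15 tested genes of liver X receptor targets and cholesterol efflux, 1 rose at 6 h and 2 at 24 h. The shares of all tested genes that rose were 4.52% and 4.75%, and these small counts are not read as a result about the list. NPC2, which carries cholesterol out of the lysosomal lumen, averaged 9.02 and 9.08 with infliximab at 6 and 24 h, against 8.62 in untreated cells (adjusted p = 0.0156 and 0.00744). Its 6 h call was lost on leaving out any of 3 single arrays (untreated replicate 4, infliximab 6 h replicates 8 and 9). MYLIP, a ubiquitin ligase for the LDL receptor, rose by 0.52 ± 0.11 at 24 h (adjusted p = 0.0104), and by 0.24 as the mean of its probe sets.

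In the lysosomal list 3 of 22 genes rose at 6 h and 4 of 22 at 24 h, beside 4.52% and 4.75% of all tested genes. None fell, and the medians were 0.10 and 0.21. ASAH1, the acid ceramidase gene, averaged 8.11 and 8.01 with infliximab at 6 and 24 h, against 7.39 in untreated cells (0.73 ± 0.10, adjusted p = 0.000856, and 0.62 ± 0.10, adjusted p = 0.0027), and its 24 h difference was 0.41 as the mean of its probe sets. PSAP, the precursor of the saposins that help lysosomal enzymes reach lipids, rose by 0.51 ± 0.11 at each time (adjusted p = 0.00864 and 0.0103), the 24 h call being lost without untreated replicate 2. The names of the ASAH1 and GRN probe sets mark probes that may also match other transcripts. GRN, the progranulin gene, rose by 0.40 at 6 h and 0.55 at 24 h (adjusted p = 0.039 and 0.00861). Its 6 h call held in 13 of 25 alternatives and was lost on leaving out any of 9 single arrays, untreated replicates 2 and 4 and all 3 infliximab 6 h arrays among them. GM2A, the GM2 activator, rose by 0.38 ± 0.10 at 24 h (adjusted p = 0.0321), which was 0.27 and did not pass (adjusted p = 0.288) without the 3 arrays that stood apart. Leaving out any of 4 single arrays also lost that call.

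In the list of lipid droplets and neutral lipid, 2 of 20 genes rose at 6 h, and 2 rose and 1 fell at 24 h. The medians were -0.02 and 0.02. Of all tested genes 4.52% rose at 6 h, and 4.75% rose and 3.45% fell at 24 h. G0S2, an inhibitor of the triglyceride lipase ATGL, averaged 6.51 and 6.62 with infliximab at 6 and 24 h, against 5.61 in untreated cells (0.90 ± 0.08, adjusted p = 7.24e-06, at 6 h, and adjusted p = 1.98e-06 at 24 h). ACSL1, which activates long-chain fatty acids, rose by 0.63 ± 0.11 and 0.62 ± 0.11 (adjusted p = 0.00408 and 0.00507). LPL, the secreted lipoprotein lipase, averaged 4.66 with infliximab at 24 h, against 5.42 in untreated cells (-0.76 ± 0.19, adjusted p = 0.0242). Without the 3 arrays that stood apart LPL differed by -0.48 and did not pass (adjusted p = 0.126), and any of 3 single arrays left out also lost its call. LPL is a marker shared with the adipocyte list, of which 3 of 5 genes were tested while ADIPOQ and LEP passed no array median.

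Of 9 tested scavenger and lipoprotein receptors, VLDLR alone rose, by 0.77 ± 0.11 at 6 h and 0.88 ± 0.11 at 24 h (adjusted p = 0.000677 and 0.000187). It averaged 7.46 and 7.57 with infliximab at those times, against 6.69 in untreated cells. The other 8 receptors did not pass at either time, where 4.52% of all tested genes rose at 6 h and 4.75% at 24 h.

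Of 12 tested genes of macrophage differentiation, 1 rose at 6 h and 3 at 24 h, beside 4.52% and 4.75% of all tested genes. CEBPB, a transcription factor of monocyte and macrophage maturation, averaged 9.49 and 9.57 with infliximab at 6 and 24 h, against 8.62 in untreated cells (0.88 ± 0.09, adjusted p = 5.67e-05, and 0.95 ± 0.09, adjusted p = 2.1e-05). CSF1R, the receptor for the growth factor M-CSF, rose by 0.73 ± 0.20 at 24 h (adjusted p = 0.0389), and TGM2, a transglutaminase, by 0.74 ± 0.21 (adjusted p = 0.049). Those last calls were lost without the 3 arrays that stood apart, at 0.32 (adjusted p = 0.331) for CSF1R and 0.08 (adjusted p = 0.882) for TGM2, with 1 infliximab array left at that time. Leaving out any of 10 single arrays also lost the call of CSF1R, and any of 14 that of TGM2. CSF1R also stands in the monocytic marker list.

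Of 19 tested relatives in the protein families of the 10 genes, 3 rose at 6 h and 2 at 24 h. Beside them stood 4.52% and 4.75% of all tested genes. The tetraspanin CD53 rose by 0.64 ± 0.08 and 0.58 ± 0.08 (adjusted p = 0.000278 and 0.000557), averaging 7.83 and 7.78 with infliximab against 7.19 in untreated cells. The galectin LGALS8 rose by 0.44 ± 0.12 and 0.61 ± 0.12 (adjusted p = 0.0359 and 0.00746), the second being 0.27 as the mean of its probe sets. The 6 h call of LGALS8 was lost on leaving out any of 5 single arrays, and that of TSPAN31 on leaving out any of 4, untreated replicates 2 and 4 and infliximab 6 h replicate 9 in both cases. TSPAN31, another tetraspanin, rose by 0.47 ± 0.12 at 6 h (adjusted p = 0.0228), and 0.28 with the spike-in level as a covariate.

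**Figure D4:**
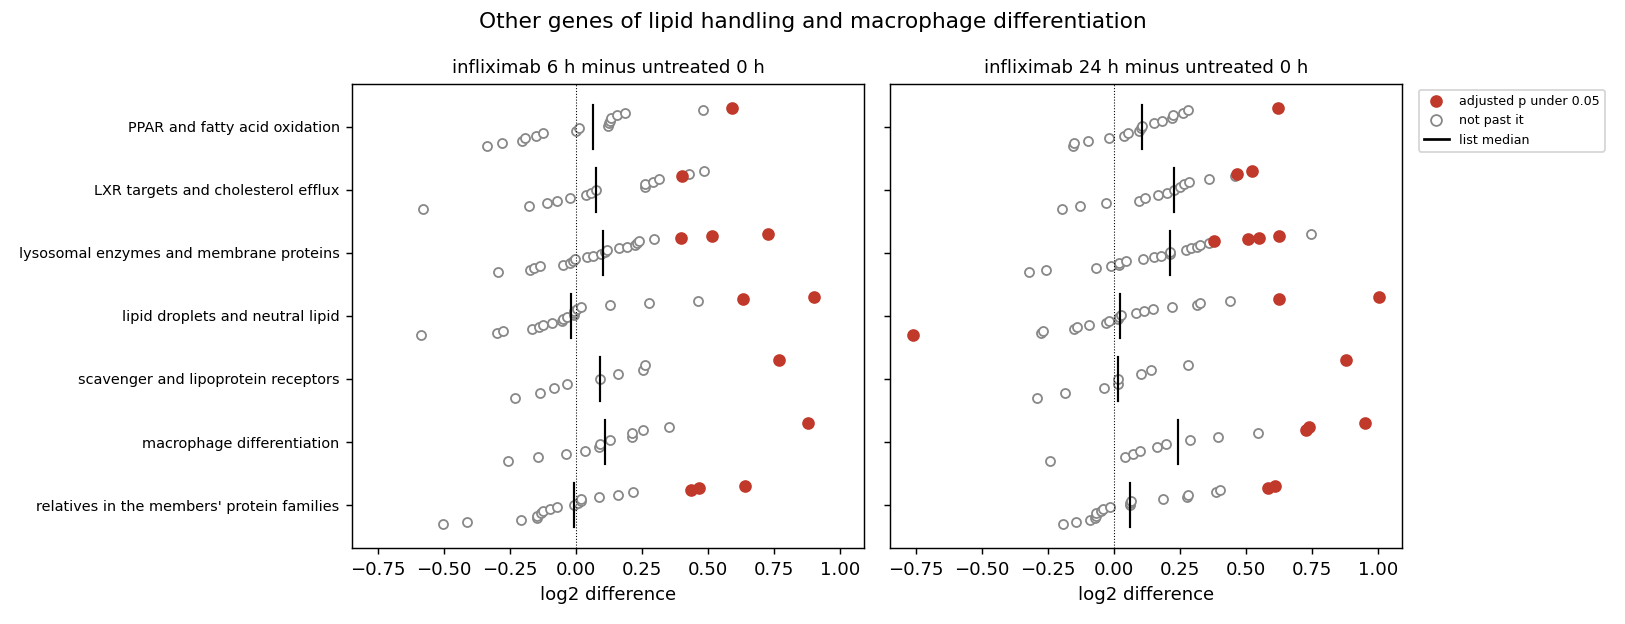
Log2 difference of infliximab from untreated cells at 6 h (left) and 24 h (right) for the tested genes of 7 lists, each gene a point and each list's median a line. Filled red points passed an adjusted p of 0.05 (limma): 12 at 6 h, all above 0, and 16 at 24 h, of which LPL at -0.76 is the one below 0.

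Against CDP870 at 6 h, 17 of the 113 genes were higher and 1 lower with infliximab (15.9% in either direction, beside 10.5% of all tested genes). At 24 h 18 were higher and 0 lower (15.9% in either direction, beside 8.19%). By direction, 5.55% of all tested genes were higher and 4.95% lower at 6 h, and 6.06% and 2.14% at 24 h. In a fit of only the arrays compared, 31 passed at 6 h and 4 at 24 h.

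The genes whose values ran most like each of the 8 over the 15 arrays are given as a description, since the arrays share groups and scaling. For TM6SF1 they were SLC38A1 (Pearson r = 0.989), CCPG1 (0.985) and LINC00662 (0.982). For PPARG they were P2RX4 (0.974), TSC22D3 (0.974) and SIAH2 (0.971). LGALS3 ran most like KLF2 (0.975), SYTL1 (0.971) and HEXA (0.969), and CD9 most like EIF2S2 (0.974), KRT18 (0.971) and HEXA (0.962). For ABCA1 the highest was SH2D3C (0.943), for LIPA KIZ (0.979) and ZFAND1 (0.966), and for FABP5 SLIRP (0.975), IFT25 (0.969) and ATP5MK (0.966). PLIN2 had no close match beyond DAP3 (0.892), followed by NKAPD1 (0.798) and ABHD10 (0.761).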

How the data were processed

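Gene expression was measured on 15 Affymetrix arrays of THP-1 RNA, 3 in each of 5 groups taken from the sample labels. The authors deposited log2 probe set values with 2 decimals (0.17 to 11.94). The submitters' processing notes name GCOS 1.3.0 and GCRMA with no role or order, the labels' protocols describe biotin-labelled cRNA from total RNA, and how arrays were scaled to each other is not given in the sources used here. Because nothing fixes where the scale starts, only differences are interpreted, and a change shared by most genes could not be seen. Precision is limited by having 3 arrays a group.

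Of 54675 probe sets 62 were controls. Of the rest 41091 had 1 gene symbol in the platform annotation, 1801 several and 11721 none, and 41037 were matched to RefSeq GRCh38.p14 by gene number, which gave names, positions and promoter sequences. Probe sets above the 50th percentile of their array on at least 3 arrays were tested (28897, of 13607 genes). limma 3.58.1 in R 4.3.3 fitted 1 mean per group to all 15 arrays (lmFit, contrasts.fit, eBayes), two-sided, with Benjamini-Hochberg adjustment within each comparison and a threshold of 0.05. Errors of differences are the model's SE and intervals are 95%. Of a gene with several tested probe sets, the one with the highest mean stood for it. The fit was tested on simulated data. Figures used matplotlib 3.10.9 in Python 3.11.15, and 0 value columns were left unused.

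The 10 genes and all lists were chosen with earlier results of these data known. Named besides the 10 genes were up to 4 called genes with the smallest p of each list and infliximab comparison, and the 3 genes most correlated with each. T cell, B cell, erythroid, fibroblast and adipocyte markers were looked up as the mean level of each list, and these means lay between 2.65 and 4.20 on all arrays. Alternatives were another set of arrays in the fit, median centring, quantile normalization, other filters, another spread model, array weights, the spike-in level as a covariate, the mean of a gene's probe sets, and leaving out arrays.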

Additional observations from a re-analysis of the deposited data

Results flagged for a closer look

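CD9, LGALS3 and PPARG lay on opposite sides of the untreated mean with the 2 agents, every infliximab array being above it and every CDP870 array below. CD9 differed from untreated cells by 0.40 with infliximab and by -0.25 with CDP870 at 6 h, and by 0.43 and -0.39 at 24 h. LGALS3 differed by 0.50 with infliximab and -0.26 with CDP870 at 6 h, and by 0.46 and -0.19 at 24 h. PPARG differed by 0.49 with infliximab and -0.02 with CDP870 at 6 h, and by 0.57 with infliximab and -0.093 with CDP870 at 24 h. None of these CDP870 differences passed the test (limma adjusted p = 0.974 to 0.9975). The CDP870 values of PPARG at both times and of LGALS3 at 24 h overlapped the untreated ones. A further LGALS3 probe set, low and not tested, ran the other way. It differed by -0.07 and -0.04 with infliximab and by 0.22 and 0.14 with CDP870 at 6 and 24 h. How many of all genes lay on opposite sides was not counted. The difference between the agents was not tested independently of the choice of CD9, LGALS3 and PPARG. All 3 were past the threshold of the fit between the agents at both times, but the infliximab arrays were used in choosing them. Both agents also share the untreated arrays.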

How the results depend on the processing

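All counts are of genes with a limma adjusted p under 0.05. No paired analysis was possible because the groups share no replicate numbers. With the spike-in level as a covariate, the comparison of infliximab with untreated cells at 6 h called 1 of the 8 genes (7 as reported) and 3 of the 113 others (12 as reported), and that with CDP870 at 6 h called 3 of 8 (7) and 6 of 113 (18). In a fit of only the arrays compared, infliximab at 24 h against untreated cells called 1 of 8 (6) and 3 of 113 (16), infliximab against CDP870 at 24 h 3 of 8 (7) and 4 of 113 (18), and infliximab against CDP870 at 6 h 31 of 113 (18). Array weights gave 26 of 113 for infliximab against untreated cells at 6 h and 33 against CDP870 at 6 h. Without the 3 arrays that stood apart these counts were 21 and 31, and infliximab at 24 h against untreated cells called 3 of 8. The causes were not tested, and neither was the part of having fewer arrays in a smaller fit.

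Leaving out 1 array gave, for infliximab against untreated cells, 4 to 7 of the 8 genes and 8 to 16 of the 113 at 6 h, and 3 to 6 and 11 to 23 at 24 h. The counts of 4 came without infliximab 6 h replicate 8, 9 or 10, that of 8 without untreated replicate 4 or infliximab 6 h replicate 9, and those of 3 and 11 without untreated replicate 2. For infliximab against CDP870 they were 5 to 7 and 8 to 20 at 6 h, the 8 without infliximab 6 h replicate 9 or CDP870 6 h replicate 15, and 5 to 7 and 13 to 26 at 24 h. Between the times of infliximab they were 0 to 1. CDP870 against untreated cells, CDP870 between times and the interaction called 0 of 8 in every alternative run. Of single-gene differences under the alternatives, 2207 kept direction and side of the threshold, 75 that passed it neither before nor after changed sign or reached 0 within the spread, 207 lost the threshold, 4 gained it, 7 uncalled ones changed sign by more than the spread, and 0 called ones changed sign. Against untreated cells infliximab kept its sign in 25 of 25 alternatives for each gene except PLIN2 (21 of 25 at each time). As a description, TM6SF1 was past the threshold in all 25 at both times, CD9 in 11 at both, LIPA in 12 at 6 h and 3 at 24 h, and ABCA1 in 20 at 6 h and 8 at 24 h. The 3 arrays a group and log2 means under the array medians limit CD36 and FABP4, which no alternative with a filter tested. ABCA1 was tested with values near those medians.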
